A study of Rattus norvegicus with 18 samples.

Results

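Complement is a cascade of plasma and tissue proteins that marks surfaces for removal and starts inflammation. Here it is described through 7 of its genes in rat lungs after clamping of the left lung root: C1qa and C1qb, which encode chains of the recognition molecule C1q, the protease gene C1s, the central component C3, and the regulators Serping1, Cfi and Cd55. They were chosen by name, as the probe sets whose platform gene symbol was one of 9 listed complement genes. Of the 9 names, 7 had a probe set of that single symbol, with 8 probe sets in all, out of 15923 probe sets on the array and 7728 genes tested. C2, a protease precursor of the classical and lectin pathways, shared its only probe set with its chromosomal neighbour Cfb. That probe set is described without being assigned to either gene. No probe set carried the symbol Cd59, and the rat gene for which RefSeq lists Cd59 as a synonym, Cd59b, is described beside the 7 and is not counted among them.

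RNA from lung tissue of male Sprague-Dawley rats was hybridised to Affymetrix rat 230A arrays, one array a lung. In anaesthetised, ventilated rats the left hilum was clamped for 2 h, without removing the lung or cooling it, and the left lung was then reperfused and ventilated. Left lungs taken after 3 h (3 lungs) or 30 min (3 lungs) of reperfusion, and the right lungs of the same rats at 3 h (3 lungs) and 30 min (3 lungs), were compared with lungs of 6 rats that were taken immediately after sacrifice. The right lungs were never clamped, but came from operated, ventilated rats, so each operated group differs from controls by surgery, ventilation and time under anaesthesia as well, and these cannot be told apart from reperfusion. The side of the control lungs is not given in the labels, and clamping cannot be told apart from side in comparisons of left with right. The p-values set each difference against the spread between lungs within groups, with left and right lungs of the same rats taken as separate.

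In textbook terms, the cascade starts through C1q, which binds antibody or altered surfaces and activates the proteases C1r and C1s, through lectins that activate related proteases, or through spontaneous activation of C3 in the alternative pathway. All routes cleave C3, and its fragments attract cells, mark surfaces and lead to the membrane attack complex. Serping1 (C1 inhibitor) blocks C1r and C1s, Cfi (complement factor I) cuts the activated fragments of C3 and C4, Cd55 (decay-accelerating factor) takes apart the C3-cleaving enzymes on cell membranes, and Cd59 stops the attack complex there. In the lung, C1q is made mainly by macrophages, and C3 by epithelial cells and macrophages among others.

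The starts of 3 of these genes are shown because they stand for the member called in both left-lung groups (Cd55), the member that differed in the right lungs (C1qb), and the member on which all routes meet (C3). Each line gives 250 bases before to 50 bases after the annotated start, from RefSeq on build GRCr8, all on the minus strand and written in the direction of the gene. The windows are chr13:44438052-44438351 for Cd55, chr5:154407778-154408077 for C1qb and chr9:2201290-2201589 for C3. RefSeq entries were matched for 5 of the 7 members.
Cd55: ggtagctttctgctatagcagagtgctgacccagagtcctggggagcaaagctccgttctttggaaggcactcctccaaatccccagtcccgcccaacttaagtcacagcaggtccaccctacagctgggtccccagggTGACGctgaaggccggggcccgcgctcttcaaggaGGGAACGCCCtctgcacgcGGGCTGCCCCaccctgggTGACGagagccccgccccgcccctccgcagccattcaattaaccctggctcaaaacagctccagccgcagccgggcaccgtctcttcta
C1qb: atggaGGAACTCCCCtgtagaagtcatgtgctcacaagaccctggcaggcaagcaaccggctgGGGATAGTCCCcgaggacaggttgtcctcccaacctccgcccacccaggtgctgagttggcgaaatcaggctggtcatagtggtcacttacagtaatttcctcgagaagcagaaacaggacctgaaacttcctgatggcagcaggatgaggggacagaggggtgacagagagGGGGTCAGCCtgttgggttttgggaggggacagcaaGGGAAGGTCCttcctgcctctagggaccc
C3: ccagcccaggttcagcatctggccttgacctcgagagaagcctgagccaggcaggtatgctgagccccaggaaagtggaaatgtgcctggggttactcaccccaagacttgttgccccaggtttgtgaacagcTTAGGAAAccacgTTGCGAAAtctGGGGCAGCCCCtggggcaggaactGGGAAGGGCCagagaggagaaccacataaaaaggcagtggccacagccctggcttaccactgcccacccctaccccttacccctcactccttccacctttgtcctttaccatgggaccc
Capitals mark matches, on either strand, to 4 short motifs: TGACG, the core of a cAMP response element, TGANTCA (AP-1), TTNNGNAA (a C/EBP core) and a loose NF-kB form, GGG and CC with any 5 bases between them. The Cd55 window held TGACG at -111 and -39 from the start and the NF-kB form at -76 and -57. The C1qb window held the NF-kB form with first bases at -245, -187, -186, -15 and 22, where the windows at -187 and -186 overlap. The C3 window held TTNNGNAA at -117 and -104 and the NF-kB form at -93, -92 and -69, the first pair overlapping. TGANTCA was in none of the 3 windows. Among all 33469 promoter windows of this length, 21.2% held TGACG, 7.33% TGANTCA, 41.3% TTNNGNAA and 47.3% the NF-kB form, so matches of the last pair are common. A match describes letters only.

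Values are MAS5 signals on a linear scale. Differences and their standard errors are on the log2(signal + 25) scale from limma, where 0 means equal, and a difference was called at an adjusted p under 0.05 after Benjamini-Hochberg adjustment over 10533 probe sets. Signals of different probe sets are not set against each other, since probe sets differ in how strongly they bind. The median signal of an array lay between 232 and 284, and the median of all genes was -0.13 on the log2 scale in left lungs at 3 h against control, so a member at 0 there lay above most genes. In bulk tissue, fewer cells of a type and less RNA per cell cannot be told apart.

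**Figure D1:**
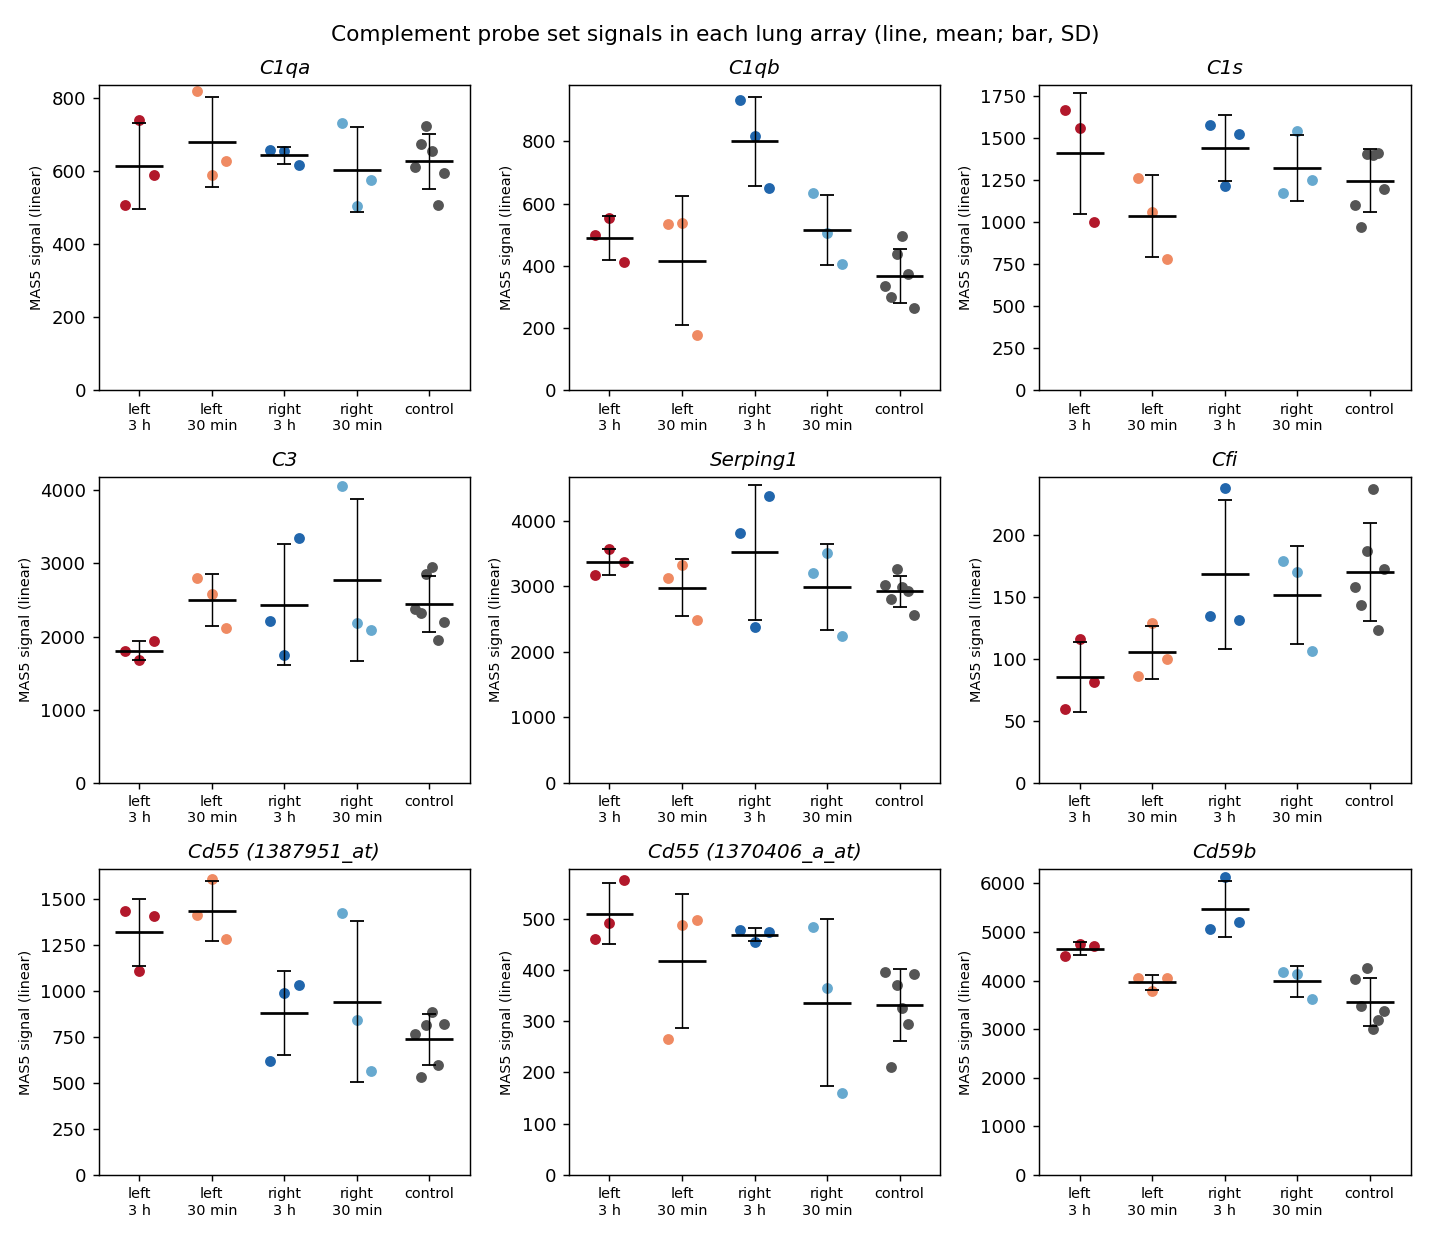
MAS5 signal (linear scale, vertical axis starting at 0) of the 8 member probe sets and of Cd59b, by group from left to right: left 3 h, left 30 min, right 3 h, right 30 min and control. Points are single lungs and bars the mean with SD. Both left groups lie above the controls for the main Cd55 probe set, and the right 3 h lungs lie above them for C1qb. The left 3 h lungs lie below the controls for Cfi and, narrowly, for C3.

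Cd55, the membrane protein that dismantles C3-cleaving enzymes, rose in the left lungs at both times. The probe set that stands for it, the one of higher mean, gave signals of 1439, 1112 and 1408 in left lungs at 3 h and of 1417, 1609 and 1286 at 30 min, against a control range of 534 to 884, with a median of 792. Every left lung lay above every control lung. At 3 h the left lungs were 1.78-fold of control (log2 0.83 ± 0.23, SE, limma adjusted p = 0.00984), or 0.96 above the median of all genes, and at 30 min they were 1.94-fold (log2 0.96 ± 0.23, SE, limma adjusted p = 0.00807). The 30 min call is lost without the 3 arrays of high actin ratio (1.12 with adjusted p = 0.0515), where the left group is a single lung taken to vary like the other groups, and with the replicate number as a block (1.02 with adjusted p = 0.0516). It is also lost with the mean of both Cd55 probe sets (0.62 with adjusted p = 0.063). The actin 3'-to-5' ratio, a measure of RNA quality, was 1.53 to 4.81 in left lungs at 30 min and 1.49 to 1.62 at 3 h. In right lungs it was 1.47 to 2.93 at 30 min and 1.42 to 1.78 at 3 h, against 1.31 to 1.54 in controls.

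In the right lungs the Cd55 signals were 619, 992 and 1033 at 3 h and 1424, 843 and 564 at 30 min, overlapping the controls in both groups. The differences from control were 0.24 ± 0.23 and 0.27 ± 0.23 (SE, limma adjusted p = 0.507 and 0.48). Left lungs exceeded right lungs by 0.59 ± 0.27 at 3 h and by 0.69 ± 0.27 at 30 min (SE, limma adjusted p = 0.258 and 0.478), so the difference between sides did not pass at either time. Mean signals ran from 1437 ± 163 (SD, n = 3) in left lungs at 30 min and 1319.8 ± 180.3 at 3 h, through 944 ± 439 and 881.5 ± 228.3 in right lungs at 30 min and 3 h, to 738 ± 139 in controls (SD, n = 6), and the control mean lay within 1 SD of the mean of both right groups. The second Cd55 probe set had signals of 462, 492 and 577 in left lungs at 3 h and of 479, 455 and 474 in right lungs at 3 h, against 212 to 396, with a median of 348, in controls. All 6 of these operated lungs lay above the controls, but neither difference passed in the fit on all arrays (log2 0.60 ± 0.26 with adjusted p = 0.0751, and 0.50 ± 0.26 with adjusted p = 0.184, SE, limma). The left 3 h difference of this probe set passed in 5 of 24 alternative settings: with arrays centred on their median (0.77, adjusted p = 0.0299), under quantile normalization (0.72, adjusted p = 0.0467), without the arrays of high actin ratio (0.60, adjusted p = 0.0112), and without right 30 min replicate 1 (adjusted p = 0.0489) or replicate 3 (adjusted p = 0.0227). The right 3 h difference passed without the arrays of high actin ratio (0.50, adjusted p = 0.0452). At 30 min it had 266, 489 and 498 in left lungs, with 1 of the lungs inside the control range, and 484, 364 and 161 in right lungs. The 2 probe sets carry the same transcript record and correlated at 0.64 over the 18 arrays, and which transcripts each detects was not tested.

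Cfi, the protease that cuts activated C3 and C4, lay below the controls in the left lungs at 3 h, at low signal. Its signals were 59.0, 116 and 81.0 in left lungs at 3 h and 86.5, 129 and 99.9 at 30 min, against 123 to 237, with a median of 165, in controls. The 3 h lungs all lay below the controls, while 1 of the 30 min lungs lay inside their range. The 3 h left lungs were 1.78-fold lower than control (log2 -0.83 ± 0.21, SE, limma adjusted p = 0.0058), and the 30 min difference of -0.57 ± 0.21 did not pass (adjusted p = 0.0655). Right lungs had 135, 238 and 132 at 3 h and 179, 169.8 and 106 at 30 min and overlapped the controls (log2 -0.035 and -0.15). The left-right difference at 3 h was -0.80 ± 0.25 (SE, limma adjusted p = 0.0987). Only 4 arrays reached the filter threshold of 174 for Cfi: 2 controls, 1 right lung at 3 h and 1 right lung at 30 min. It was thus tested through the groups where it was high. Its adjusted p and call are therefore a description, and are no support for a fall or for a count. The fold understates a change at low signal.

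Leaving out replicate 1 of the left 3 h group ended both left 3 h calls (Cd55 0.77, adjusted p = 0.0551; Cfi -0.65, adjusted p = 0.0577). Without Cfi, 1 of 6 members was called in left lungs at 3 h, Cd55, higher, where 37.6% of all genes were called, 13.5% higher and 24.1% lower. At 30 min 1 of these 6 was called, again Cd55, against a background of 18.2% of all genes (8.64% higher and 9.52% lower). The median difference of the 6 was 0.18 at 3 h and 0.048 at 30 min, against -0.13 and -0.056 over all genes. A count of 1 in 6 is too small to be read as above or below these shares. The direction of calls depended on scaling: 35.9% of the calls in left lungs at 3 h were higher, and 61.2% with arrays centred on their median, and these shares were 47.6% and 66.4% in left lungs at 30 min, 38.1% and 56.8% in right lungs at 3 h, and 48.4% and 60.4% in right lungs at 30 min.

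Among the C1q chains, C1qb and C1qc rose in the right lungs at 3 h, and C1qa did not pass in any comparison. C1qb rose in the right lungs at 3 h, with signals of 933, 818 and 649, against a control range of 265 to 497, with a median of 354. All 3 lungs lay above every control lung. They were 2.12-fold of control (log2 1.08 ± 0.27, SE, limma adjusted p = 0.00875), the largest difference of any member in this comparison. In right lungs at 30 min the signals were 633, 506 and 408, the lowest of them inside the control range (log2 0.47 ± 0.27, SE, limma adjusted p = 0.265). The difference between the times in right lungs did not pass (log2 0.62 ± 0.31, SE, adjusted p = 0.39).

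In the left lungs C1qb was 499, 553 and 413 at 3 h and 535, 537 and 179 at 30 min. One 30 min lung, at 179, lay below every control, and the other left lungs ran from inside the control range to just above it. The differences from control were 0.40 ± 0.27 and 0.057 ± 0.27 (SE, limma adjusted p = 0.247 and 0.906). Left lungs were lower than right lungs at 3 h by a log2 difference of -0.68 ± 0.31 (SE), which did not pass (adjusted p = 0.263). By mean signal the order was right 3 h (800.2 ± 142.8), right 30 min (516 ± 113), left 3 h (488 ± 70.6), left 30 min (417 ± 206) and control (368 ± 87.1, SD, n = 6, with 3 in each operated group), and neighbours below the first lay within their SDs.

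The other C1q chains were measured in the same lungs. C1qc, the third chain, lies between C1qa and C1qb on chromosome 5, with no annotated gene in between on either side. C1qc had 877, 936 and 865 in right lungs at 3 h, against 404 to 610.1, with a median of 481, in controls, and rose 1.76-fold (log2 0.82 ± 0.17, SE, limma adjusted p = 0.00315), with all 3 lungs above the controls. C1qa had 659, 655 and 617 in the same lungs, against 507 to 724, with a median of 633, in controls, so its 3 lungs lay inside the control range (log2 0.042 ± 0.14, SE, limma adjusted p = 0.869). The 95% interval of this difference was -0.26 to 0.35, and that of the C1qb difference was 0.52 to 1.65. The difference between the chains was not tested. C1qa had 509, 742 and 591 in left lungs at 3 h, 820.2, 591 and 629 in left lungs at 30 min and 732, 504 and 577 in right lungs at 30 min. C1qa differences from control were -0.04 in left lungs at 3 h, 0.11 at 30 min and -0.061 in right lungs at 30 min, none passing. Over 18 arrays, C1qb and C1qc correlated at 0.86, C1qa and C1qc at 0.50, and C1qa and C1qb at 0.21, as descriptions of arrays that share group and scaling.

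**Figure D2:**
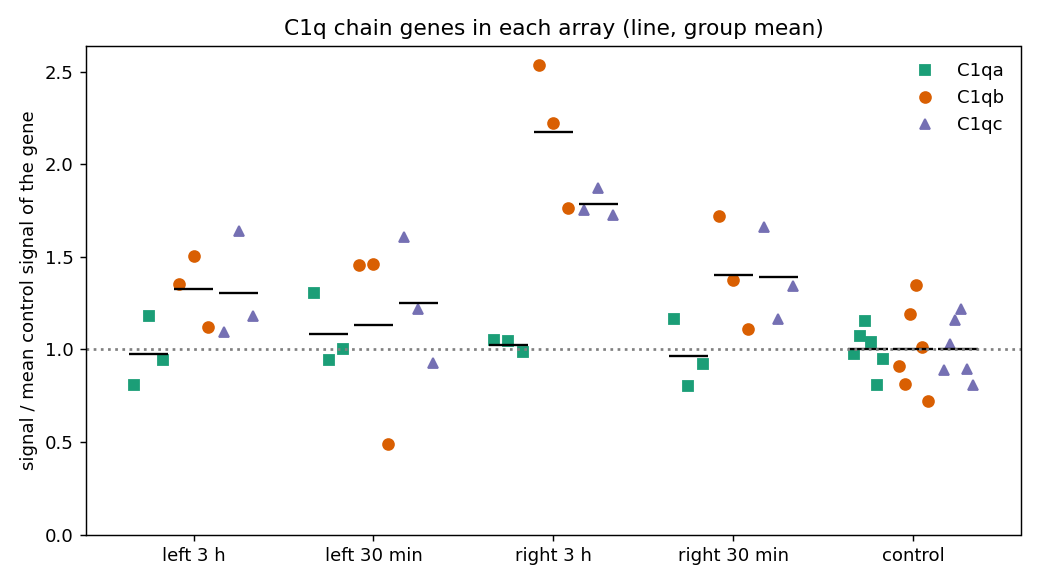
Signal of each C1q chain gene divided by its mean in the controls (vertical axis, linear, 1 is the control mean), by group, with 1 point a lung. C1qb and C1qc lie above 1.7 times the control mean in every right lung at 3 h, while C1qa lies between 0.98 and 1.05 there.

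The macrophage and other cell markers moved with these groups as follows. The summed signal of the 5 tested macrophage markers (of 13 listed: Cd68, Csf1r, Lyz2, C5ar1 and Cd14) was 16306 to 22425 in right lungs at 3 h and 16202 to 20151 in left lungs at 3 h, against 15987 to 19022 in controls, so the ranges overlap. Of these 5, only Cd14 was called higher, in each operated group, and Csf1r was called lower in left lungs at both times and in right lungs at 30 min. The 7 tested neutrophil markers of 16 summed to 8250 to 12091 in right lungs at 3 h and 8187 to 18530 in left lungs at 3 h, against 1703 to 3966 in controls. In each operated group 3 of 7 were called higher (S100a8, S100a9 and Mmp8), and Cxcr1 was called lower in all but the right 3 h group. Of all genes, 5.93% to 13.5% were called higher in the 4 groups and 6.33% to 24.1% lower. The part of these markers in the C1qb or Cd55 differences was not tested.

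The 6 tested cardiac muscle markers of 10 summed to 2174 to 10386 in right lungs at 3 h and 226 to 405 in left lungs at 3 h, against 241 to 3726 in controls, and 0 of them was called in either group. The 6 tested endothelial markers of 8 summed to 11251 to 12607 in right lungs at 3 h and 12053 to 14053 in left lungs at 3 h. The sum in controls was 15660.3 to 18097, above that of every 3 h lung, but a sum weighs strong probe sets most. Of these 6 markers, 2 were called lower in right lungs at 3 h and 1 in left lungs at 3 h, and 1 lay above 0 in each. Of all genes, 12.6% and 24.1% were called lower there. The alveolar type II markers, 8 of 10 tested, summed to 33061 to 44732 in left lungs at 3 h, against 52506 to 55224 in controls. Of these 8, 6 were called lower there, where 24.1% of all genes were called lower. Hepatocyte markers Alb, Apoa1 and Ttr did not reach the signal filter, and the 2 that did, Apob and Serpina1, summed to 358 to 591 in left lungs at 3 h against 567 to 730.3 in controls. Their part in the differences of the complement genes was not tested.

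Across the 6 members other than Cfi in right lungs at 3 h, 1 was called, C1qb, higher, where 20.4% of all genes were called, 7.75% higher and 12.6% lower. At 30 min 0 members, Cfi included, were called in the right lungs, and 0 reached an unadjusted p under 0.05 in limma, against 12.3% of all genes called (5.93% higher and 6.33% lower). In the direct tests of left against right, 0 of 7 passed at 3 h (3 at an unadjusted p under 0.05, of which 1 was Cfi) against 2.37% of all genes, and 0 of 7 at 30 min (1 unadjusted) against 0.0518%. Between the times, 0 of 7 passed in left lungs (3.07% of all genes) and in right lungs (0.194%), each with 0 at an unadjusted p under 0.05, and 0 passed when the left-right difference at 3 h was set against that at 30 min (0.233%, 0 unadjusted).

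**Figure D3:**
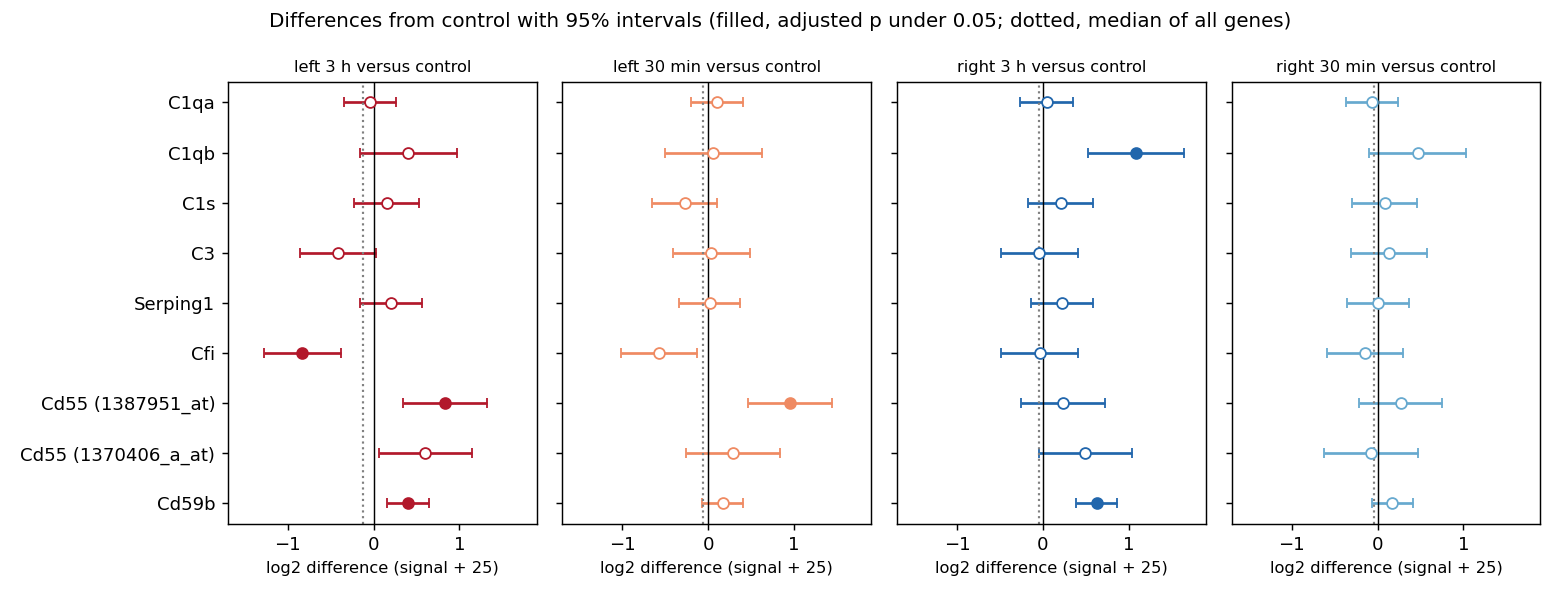
Difference of each member probe set and of Cd59b from control on the log2(signal + 25) scale, with 95% intervals, for left 3 h, left 30 min, right 3 h and right 30 min lungs. Filled points passed the adjusted p, and the dotted line is the median of all genes. The filled points are the main Cd55 probe set in both left groups, C1qb in right 3 h lungs and Cd59b in both 3 h groups. Cfi is also filled in left 3 h lungs, at low signal and tested through the groups where it was high.

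The proteases and inhibitors of the start of the classical pathway did not pass in any comparison. C1s, the protease that C1r activates, had 1665, 1561 and 999 in left lungs at 3 h and 1265, 1059.6 and 781 at 30 min, against 972 to 1410.1, with a median of 1297, in controls. In right lungs it had 1578, 1215 and 1522 at 3 h and 1174, 1541 and 1251 at 30 min. Its values overlapped the controls in all groups, with differences between -0.28 and 0.21. Serping1, the C1 inhibitor, had 3168, 3567 and 3367 in left lungs at 3 h and 3816, 2373 and 4370.0 in right lungs at 3 h, against 2554 to 3263, with a median of 2955, in controls. At 30 min it had 3123, 3316 and 2483 in left lungs and 3208, 3499 and 2244 in right lungs. The right 3 h lungs lay on both sides of the control range, and the differences from control lay between 0.007 and 0.22 in the 4 groups. The 95% interval in left lungs at 3 h was -0.16 to 0.56.

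C3, the component on which all routes meet, was lower in the left lungs at 3 h than in any control, narrowly and without passing the test. Its signals were 1808, 1673 and 1933 in left lungs at 3 h and 2805, 2582 and 2110.5 at 30 min, against 1952 to 2949.9, with a median of 2352, in controls. The 3 h difference was -0.42 ± 0.21 with a 95% interval of -0.86 to 0.026 (SE, limma adjusted p = 0.128). Relative to the median of all genes it was -0.29. Array medians were 232 to 261 in these left lungs and 262 to 284 in controls, so the narrow gap depends on the scaling of the arrays. In right lungs the signals were 2211, 1747 and 3356 at 3 h and 4060.2, 2186 and 2088 at 30 min, with the highest value of all arrays, 4060.2, among them. The right-lung differences were -0.04 and 0.13.

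The probe set shared by Cfb, the protease of the alternative pathway's convertase, and C2, its counterpart in the classical pathway, was higher in right lungs at 3 h. It had 4539, 3518 and 3658 in right lungs at 3 h and 2395, 3487 and 1982 in left lungs at 3 h, against 2271 to 2987, with a median of 2429, in controls. All right 3 h lungs lay above all controls (1.52-fold, log2 0.61 ± 0.17, SE, limma adjusted p = 0.0192), and left lungs overlapped them (log2 0.0054). The left-right difference at 3 h was -0.60 ± 0.20 (SE, limma adjusted p = 0.123), and which of the 2 genes gave the signal was not tested. At 30 min it had 2861, 2129 and 1678 in left lungs and 2853, 3085 and 2621 in right lungs, both overlapping the controls. Without replicate 1 of the right 3 h group the call was lost (0.49, adjusted p = 0.0942).

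Cd59b, which encodes the membrane inhibitor of the attack complex, rose at 3 h on both sides. It had 4508, 4756 and 4703 in left lungs and 5071, 6135 and 5207 in right lungs at 3 h, against 2993 to 4261, with a median of 3420.2, in controls, with every 3 h lung above every control. The rise was 1.54-fold in right lungs (log2 0.63 ± 0.11, SE, limma adjusted p = 0.0011) and 1.32-fold in left lungs (log2 0.40 ± 0.11, SE, limma adjusted p = 0.0114). At 30 min it had 4054, 3780.4 and 4049 in left lungs and 4185, 4142 and 3621 in right lungs, all inside the control range. The differences were 0.17 in left lungs and 0.17 in right lungs, neither passing (adjusted p = 0.321 and 0.341). The left 3 h call was lost under quantile normalization (0.25, adjusted p = 0.111). The left-right difference at 3 h was -0.23 ± 0.13 (SE, adjusted p = 0.389).

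Within a group, lungs scattered differently for different members. For the main Cd55 probe set the SD was 11.3% of the mean in left lungs at 30 min and 46.5% in right lungs at 30 min. For C1qb it was 49.4% of the mean in left lungs at 30 min, against 17.8% in right lungs at 3 h. For Serping1 it was 5.9% in left lungs at 3 h and 29.3% in right lungs at 3 h, against 8.1% in controls. For C3 the SD was 1112 on a mean signal of 2778 in right lungs at 30 min, where 1 lung was at 4060.2, against 385 on 2442 in controls. Some of the outlying lungs had a high actin ratio. The left 30 min lung with C1qb at 179 had a ratio of 2.30, and the right 30 min lung with Cd55 at 564 had 2.93. The left 30 min lung of highest ratio, 4.81, had C1qb at 535, and the lung with C3 at 4060.2 had a ratio of 1.47. The part of RNA quality in this scatter was not tested.

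The genes most alike to each called member, by Pearson correlation of log2 values over the 18 arrays among 7727 other genes, were read off as a description. For Cd55 they were Cldn4 at 0.90, Wbp11 at 0.89 and Hbegf at 0.88. For C1qb they were Hebp1 at 0.93, Ifitm2 at 0.91 and C1qc at 0.86. For Cfi they were Mrpl15 at 0.89, Mgst3 at 0.84 and Hadha at 0.83. The arrays share groups and scaling.

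Beyond the members, 27 of 53 other listed genes were tested. They are complement genes and 4 pattern recognition genes listed with them, Sftpa1, Sftpd, Lbp and Cd14. Of these 4, Lbp and Cd14 serve the recognition of lipopolysaccharide. In left lungs at 3 h 4 were called higher and 3 lower, with a median of -0.047 against -0.13 over all genes, where 37.6% of all genes were called. In left lungs at 30 min 2 were higher and 3 lower, in right lungs at 3 h 5 were higher and 1 lower, and in right lungs at 30 min 2 were higher and 2 lower, where 18.2%, 20.4% and 12.3% of all genes were called. These shares lie near or below the background, except for the higher calls in right lungs at 3 h. There 5 of 27 stands beside 7.75% of all genes called higher. Of the 5, Cd14 and Lbp are pattern recognition genes, and the others were Cd93, Pros1 and C1qc. The call was lost in 14 of 25 alternative settings for Pros1 and in 8 for Lbp. The list was chosen with earlier results of these data known, so this count is not read as an excess. Of the 4 complement receptors tested, 1 passed in each group. Of the 8 other regulators, 4 passed in left lungs at 3 h, 1 in left lungs at 30 min, 2 in right lungs at 3 h and 2 in right lungs at 30 min.

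Cd93, a C-type lectin receptor first described as a C1q receptor, rose in every operated group, as did Cd14. It had 2809.6, 2119 and 1392 in left lungs at 3 h and 1294, 1229 and 2397 in right lungs at 3 h, against 382 to 993, with a median of 431, in controls. The rise was 3.86-fold in left lungs at 3 h (log2 1.95 ± 0.29, SE, limma adjusted p = 9.11e-05) and 2.99-fold in right lungs at 3 h (log2 1.58 ± 0.29, SE, limma adjusted p = 0.00101). All operated lungs lay above the controls. A second Cd93 probe set was below the filter, and gave 164, 119.6 and 161 in left lungs at 3 h against 121 to 169.6, with a median of 143, in controls, so it does not show the difference. Cd14, the lipopolysaccharide co-receptor, rose 4.96-fold in left lungs at 3 h and 3.73-fold in right lungs at 3 h (limma adjusted p = 5.86e-05 and 0.000587). At 30 min Cd14 was 1.17 above control in left lungs and 1.03 in right lungs on the log2 scale (limma adjusted p = 0.0157 and 0.0407). The Cd14 call in left lungs at 30 min was lost without replicate 2 of that group (0.95, adjusted p = 0.0936), and without the arrays of high actin ratio (1.61, adjusted p = 0.0657). That in right lungs at 30 min was lost in 9 of 25 alternative settings, right 30 min replicate 1 moving it most (0.69, adjusted p = 0.235). With the replicate number as a block both 30 min calls of Cd14 were lost (0.95, adjusted p = 0.146 in left lungs, and 0.81, adjusted p = 0.255 in right lungs).

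Vtn, vitronectin, which blocks the attack complex in fluid, fell 2.59-fold in left lungs at 3 h (log2 -1.37 ± 0.23, SE, limma adjusted p = 0.000285). It had 252, 238 and 209 in left lungs at 3 h and 628, 457 and 535 in right lungs at 3 h, against 493 to 879, with a median of 641, in controls, and the left lungs fell below the right by -1.12 ± 0.27 (SE, limma adjusted p = 0.0349). Cpn1, a carboxypeptidase subunit that trims the anaphylatoxins, was lower in all 4 groups: -0.77 in left lungs at 3 h, -0.53 at 30 min, -0.57 in right lungs at 3 h and -0.54 at 30 min on the log2 scale (limma adjusted p = 0.000708, 0.0147, 0.0101 and 0.0197). Every operated lung lay below the lowest control. The Cpn1 calls outside left lungs at 3 h were each lost without 1 lung: left 30 min replicate 2 (-0.41, adjusted p = 0.102), right 3 h replicate 3 (-0.42, adjusted p = 0.079) and right 30 min replicate 1 (-0.42, adjusted p = 0.119). With the replicate number as a block, these Cpn1 calls were lost too (limma adjusted p = 0.102 in left lungs at 30 min, 0.0821 in right lungs at 3 h and 0.136 in right lungs at 30 min).

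Further genes were called in 1 or 2 groups. Pros1, protein S, which binds the C4-binding protein, was 0.51 above control in left lungs at 3 h and 0.42 in right lungs at 3 h (limma adjusted p = 0.0113 and 0.0464). Lbp, which hands lipopolysaccharide to Cd14, was 0.67 above control in right lungs at 3 h (adjusted p = 0.0385), and Thbd, thrombomodulin, 0.30 in left lungs at 3 h (adjusted p = 0.0447), where a second Thbd probe set had 2919.5, 2330.3 and 1851 against 2201 to 2389, with a median of 2296, in controls and so disagreed. Sftpa1, a collectin, was -0.34 from control in left lungs at 3 h (adjusted p = 0.0295). Fcna, a ficolin, and Cfd, factor D, were -0.61 and -0.59 in left lungs at 30 min (adjusted p = 0.0293 and 0.0224), and both calls were lost without the arrays of high actin ratio (-0.18 and -0.20) and with the replicate block (adjusted p = 0.0923 and 0.0887). Cr1l, the rodent membrane regulator Crry, was -0.33 in right lungs at 30 min (adjusted p = 0.0359, and 0.175 with the replicate block). Of 25 alternative settings, the call was lost in 14 for Pros1 and 8 for Lbp in right lungs at 3 h, in 13 for Thbd, 6 for Sftpa1 and 2 for Pros1 in left lungs at 3 h, and in 10 for Cr1l, 9 for Fcna and 6 for Cfd. C3ar1, the receptor of the C3a fragment, was below the filter, with signals of 27.6, 18.5 and 31.3 in left lungs at 3 h, against 41.3 to 59.4, with a median of 49.8, in controls.

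**Figure D4:**
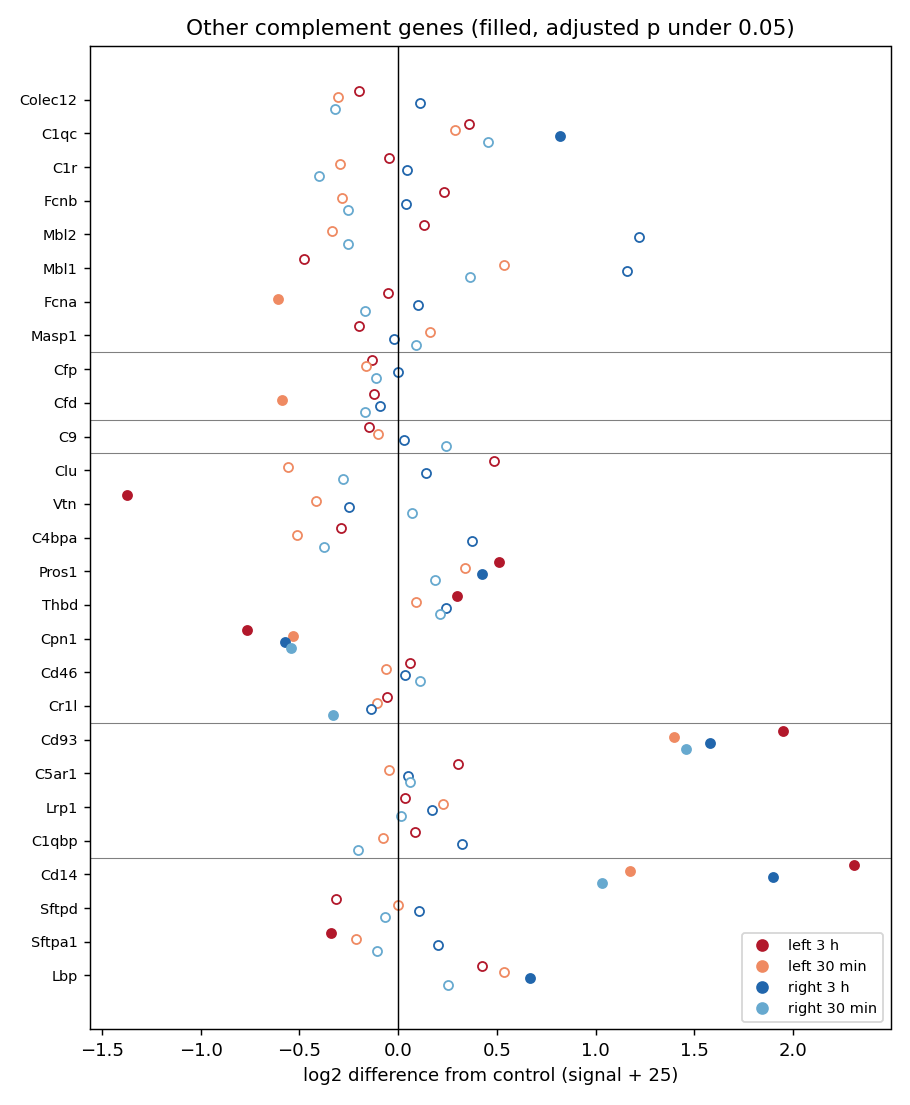
Difference from control on the log2(signal + 25) scale for left 3 h, left 30 min, right 3 h and right 30 min lungs. The 27 other listed genes tested are shown, of which 4 are pattern recognition genes, Cd14 and Lbp among them. Filled points passed the adjusted p. Cd93 and Cd14 lie highest and Vtn lowest in left 3 h lungs, Cpn1 lies below 0 with a filled point in all 4 groups, and C1qc is filled in right 3 h lungs.

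Genes of 2 known responses are given for comparison. Of 16 tested acute-phase and cytokine-responsive genes, 11 were higher in left lungs at 3 h, 8 in left lungs at 30 min, 12 in right lungs at 3 h and 6 in right lungs at 30 min, with 0 lower, where 13.5%, 8.64%, 7.75% and 5.93% of all genes were higher. Of 13 tested interferon-responsive genes, 4 were higher and 1 lower in left lungs at 3 h, 5 were higher in left lungs at 30 min, 0 were called in right lungs at 3 h, and 2 were higher in right lungs at 30 min. The median log2 difference of the acute-phase list was 1.11 in left lungs at 3 h, 0.71 in left lungs at 30 min, 0.90 in right lungs at 3 h and 0.57 in right lungs at 30 min. That of the interferon list was 0.24, 0.57, -0.25 and 0.13 in the same groups, and that of all genes -0.13, -0.056, -0.048 and -0.038. Lbp belongs to both the acute-phase and the recognition list.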

How the data were processed

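Lung RNA from 18 arrays was analysed, 6 control and 3 in each of 4 operated groups, grouped by the labels. The deposited values are probe set intensity signals, made by the authors with MAS5, per the submitters' processing notes, which name no version. The mean over probe sets, with 2% trimmed at each end, was about 500.1 on every array, so arrays were compared as scaled. GeneSpring 7.2 is named for the authors' later analysis, per the series design text. Columns left unused numbered 0.

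The 57 control probe sets were left out. Testing was limited to the 10533 probe sets above 174, the 40th percentile of signals, on 3 or more arrays. Symbols are those of the platform annotation (1 symbol for 12783 probe sets, several for 312, none for 2771). Where a gene had several tested probe sets, the one of highest mean stands for it. limma 3.58.1 in R 4.3.3 (lmFit and eBayes) fitted 5 group means on log2(signal + 25), two-sided, with Benjamini-Hochberg adjustment over all tested probe sets, and adjusted p under 0.05 was called. Scripts were tested on simulated data. The number of arrays limits the precision. Figures and tables used Python 3.11.15 with numpy 2.4.6, pandas 2.3.3 and matplotlib 3.10.9.

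The members, the lists of other genes and the markers were chosen with earlier results of these data known, and support nothing independently. All member probe sets are named. From each list of other complement genes, pattern recognition included, the passing genes of smallest adjusted p against control are named. These are up to 4 per list, and all where at most 5 passed. The 3 genes most correlated with each called member are named too. Alternatives were a pseudocount of 100, no filter, centring, quantile normalization, the mean of a gene's probe sets, leaving out the 3 arrays with an actin ratio above 2, leaving out each array, and the replicate number as a block. In left-right comparisons the block pairs same numbers at both times. Against control and between times it also joins lungs of different rats by number alone, so a call lost there is not a result of pairing.

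Left and right lungs came from the same rats, but the labels do not say whether numbers mark rats. Deviations of same-numbered left and right lungs correlated at 0.12, 0.31 and 0.15 at 30 min, and at -0.17, 0.066 and -0.15 at 3 h. Those of differently numbered lungs ran from -0.29 to 0.099 at 30 min and from -0.24 to 0.34 at 3 h. The reported fits took no pairs at either time, and only the replicate block did.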

Additional observations from a re-analysis of the deposited data

How the results depend on the processing

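Counts of called members, Cfi included, were within 1.5 times of those reported in 218 of 225 combinations of comparison and alternative. Most of these combinations belong to comparisons where the count was 0 and stayed at 0. The 7 that moved all lay in the comparisons with a called member, those of left 30 min, left 3 h and right 3 h lungs with control. In left lungs at 30 min the count of 1 fell to 0 without the arrays of actin ratio above 2, to 0 with the mean of a gene's probe sets and to 0 with the replicate block. Leaving out single arrays gave 1 to 2 there, 0 to 2 in left lungs at 3 h (0 without left 3 h replicate 1) and 1 to 2 in right lungs at 3 h (2 without right 3 h replicate 2). The second member in left lungs at 30 min was Cfi, without control replicate 5 (-0.65, adjusted p = 0.0442) or right 3 h replicate 2 (-0.57, adjusted p = 0.0435). Of 49 differences followed in 1222 settings, 0 reversed, 94 lost a call and 9 gained one. These 49 were picked from the same data for a low unadjusted p or a call, so a reversal was unlikely from the start. The C1qb difference in right lungs at 3 h kept its call in all 25 alternatives (0.95 to 1.22, adjusted p = 0.000764 to 0.0428).

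With the replicate block, which pairs same-numbered left and right lungs, the left-right comparisons at 30 min and 3 h called 0 members as without it. Against control the numbers share only a label, since the controls were other rats. There the block moved the Cd59b difference in left lungs at 3 h to 0.25 (limma adjusted p = 0.175). The causes of these changes were not tested. Depth in the sense of reads does not apply, and low signals such as those of Cfi are the limit here, since the fold is damped by the pseudocount. Groups of 3 lungs leave wide intervals, so a difference that did not pass is not shown to be absent.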
